A study of Homo sapiens with 6 samples.

Results

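The enzymes of the urea cycle and of arginine metabolism were measured in the human liver cancer line SNU-449, derived from a hepatocellular carcinoma, as CPS1, OTC, ASS1, ASL, ARG1, ARG2, NAGS and CAD. All probe sets annotated to exactly 1 of these 8 symbols were taken, which gave 14 of the 54613 non-control probe sets and 8 of the 19775 genes with such a probe set. The study compared 3 Affymetrix arrays of cells labelled USP48 OE, which had been transduced with a lentivirus carrying the ubiquitin-specific protease USP48 and selected with puromycin into a stable line, with 3 arrays of cells labelled as carrying the empty vector. All arrays are of the same cell line, in serum-supplemented RPMI-1640 medium, and the titles call the cells transfected in both groups. The labels do not say whether the replicates were separate cultures or infections, so the spread behind each p-value is that between arrays and may be technical. Values are deposited log2 signals, 1 per probe set and array, and differences are arrays labelled USP48 overexpression minus empty vector.

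The urea cycle turns toxic ammonia into urea and is at its fullest in hepatocytes. In the mitochondrion CPS1 makes carbamoyl phosphate from ammonia and bicarbonate, an activity that depends on N-acetylglutamate made by NAGS, and OTC joins carbamoyl phosphate to ornithine to give citrulline. In the cytosol ASS1 and ASL turn citrulline and aspartate into arginine, and an arginase, ARG1 in liver cytosol or ARG2 in mitochondria of many tissues, splits arginine into urea and ornithine. CAD is the cytosolic protein that makes its own carbamoyl phosphate from glutamine and uses aspartate to open pyrimidine synthesis.

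USP48 was not called higher by any of its 5 probe sets in the arrays labelled USP48 overexpression, so the groups are named by their labels. Probe set 220079_s_at was at 7.06 ± 0.12 in arrays labelled USP48 overexpression and at 7.88 ± 0.05 in empty vector arrays (SD, n = 3 each; log2 difference -0.82, limma adjusted p = 0.00013), 220078_at differed by -0.63 (limma adjusted p = 0.000852), and the others had adjusted p of 0.121 to 0.367. After quantile normalization 1 of these, 229812_at, was called higher (0.30, adjusted p = 0.0407). Whether these probe sets read the transgene is not known here. The 18 hybridization control probe sets, labelled RNAs added before hybridization, averaged 10.09 ± 0.10 in the arrays labelled USP48 overexpression and 9.79 ± 0.04 in the empty vector arrays (SD, n = 3 each; two-sided exact permutation p = 0.1, which no design of 3 against 3 arrays can go below). Equalising these controls between arrays, called control scaling here, lowers every difference by 0.29 and moved the median difference of all probe sets to -0.26, against 0.03 as deposited. Under control scaling the USP48 probe sets 225925_s_at (-0.42, adjusted p = 0.00731) and 232621_at (-0.54, adjusted p = 0.00894) were called lower. The mean of all USP48 probe sets was called lower in the deposited values (-0.32, adjusted p = 0.00707). GAPDH, whose 5′ minus 3′ signal falls with RNA degradation, was at -0.51, -0.45 and -1.31 in the USP48-labelled arrays, with replicate 3 apart, and -0.32, -0.37 and -0.44 in the empty vector arrays (exact permutation p = 0.1). The same measure of ACTB was at -3.88, -3.44 and -4.14 in USP48-labelled arrays and -3.26, -3.42 and -3.70 in empty vector arrays (exact permutation p = 0.2). The 27 poly-A spike-in probe sets averaged 5.10 ± 0.21 in USP48-labelled arrays and 4.71 ± 0.12 in empty vector arrays (SD, n = 3 each; exact permutation p = 0.1). The part of these technical differences in the results below was not tested, and values without USP48-labelled replicate 3 and under control scaling are given where they end a call.

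The hepatocyte character of the line was checked on 11 marker genes by the brightest probe set of each. Of these, 7 lay below the median of every array in both groups, among them the plasma protein genes ALB, APOA1, APOB and FGB. The other 4 did not, and averaged 5.31 in USP48-labelled arrays and 5.11 in empty vector arrays for TTR, 4.33 and 4.30 for TF, 5.85 and 5.84 for CYP3A4, and 3.96 and 3.75 for AFP. The mean level of the list was 3.45 to 3.55 in the USP48-labelled arrays and 3.32 to 3.47 in the empty vector arrays. ALB averaged 2.14 ± 0.07 in USP48-labelled arrays and 2.07 ± 0.18 in empty vector arrays (SD, n = 3 each), so the defining marker of hepatocytes was dim. In the hepatocyte list 1 gene, TAT, rose, at low signal (0.33, limma adjusted p = 0.0264; 0.03, adjusted p = 0.823, under control scaling; adjusted p = 0.0523 to 0.107 without any 1 array other than empty vector replicate 2). Of 5 leukocyte markers 3 lay below the median of every array, and 0 passed the test by limma (2 at an unadjusted p under 0.05). Of 4 endothelial markers 2 did, and CDH5 fell by 0.42 (limma adjusted p = 0.0184; 0.0581 without USP48-labelled replicate 3, 0.0786 without empty vector replicate 2 and 0.0624 without empty vector replicate 3). Of 6 biliary and epithelial markers SOX9 rose by 0.56 (limma adjusted p = 0.0349; 0.206 under control scaling, and 0.115 to 0.142 without USP48-labelled replicate 2 or empty vector replicate 2 or 3) and EPCAM fell by 0.42 (limma adjusted p = 0.0139; 0.0634 without empty vector replicate 1). CDH5 and SOX9 had low signal, averaging 3.87 and 4.72 in USP48-labelled arrays and 4.29 and 4.15 in empty vector arrays. Of 5 mesenchymal markers FN1, fibronectin, rose by 1.48 (limma adjusted p = 0.000844), and VIM, vimentin, and CDH2, N-cadherin, fell by 0.42 and 0.65 (limma adjusted p = 0.0111 and 0.00158), the VIM call being lost on averaging its probe sets (-0.27, adjusted p = 0.0555). Over the 5 marker lists 3 of 31 genes were higher and 4 of 31 lower, near the 14.0% and 13.2% of all genes that were. Counting every probe set, 3 of 31 hepatocyte and 1 of 11 leukocyte probe sets were higher and 0 lower. Of 11 biliary and epithelial probe sets 3 were higher and 1 lower, of 19 mesenchymal 6 and 4, and of 9 endothelial 1 and 1. Over all probe sets 10.6% were higher and 13.8% lower. The part of the markers in the results was not tested.

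CPS1, the entry enzyme of the cycle, fell most among the members. ASS1, ASL and CAD fell less, and NAGS, which makes the activator of CPS1, rose at a signal not far above the array medians. By probe sets, 5 of 14 were lower and 3 of 14 higher at a limma adjusted p under 0.05, where 13.8% and 10.6% of all probe sets were. In either direction it was 8 of 14, against 24.3% of all probe sets. Separate groups, with no overlap, were seen for 7 of 14 probe sets, against 38.2% of all. By the brightest probe set of each gene, 4 of 8 members were lower (13.2% of all genes) and 2 of 8 higher (14.0% of all genes), together 6 of 8 against 27.1%, and the groups did not overlap for 6 of 8, against 42.9%. The members were chosen with earlier results of these data known, so these shares only describe them and cannot show enrichment. The median difference over the 14 probe sets was 0.01, beside 0.03 over all probe sets, with members moving in both directions. By the brightest probe set of each gene the median over the 8 members was -0.20, beside 0.05 over all genes. Of the 14 probe sets, 6 lay below the median of every array in both groups, namely OTC, the 4 of ARG1 and the dimmer of CAD. The higher probe sets were those of NAGS and OTC and a probe set of ARG1, so the higher share rests mostly on dim signal. By gene the higher members were NAGS and dim OTC. Without the dimmest 33.3% of probe sets 1 member probe set was higher, and under control scaling also 1.

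**Figure D1:**
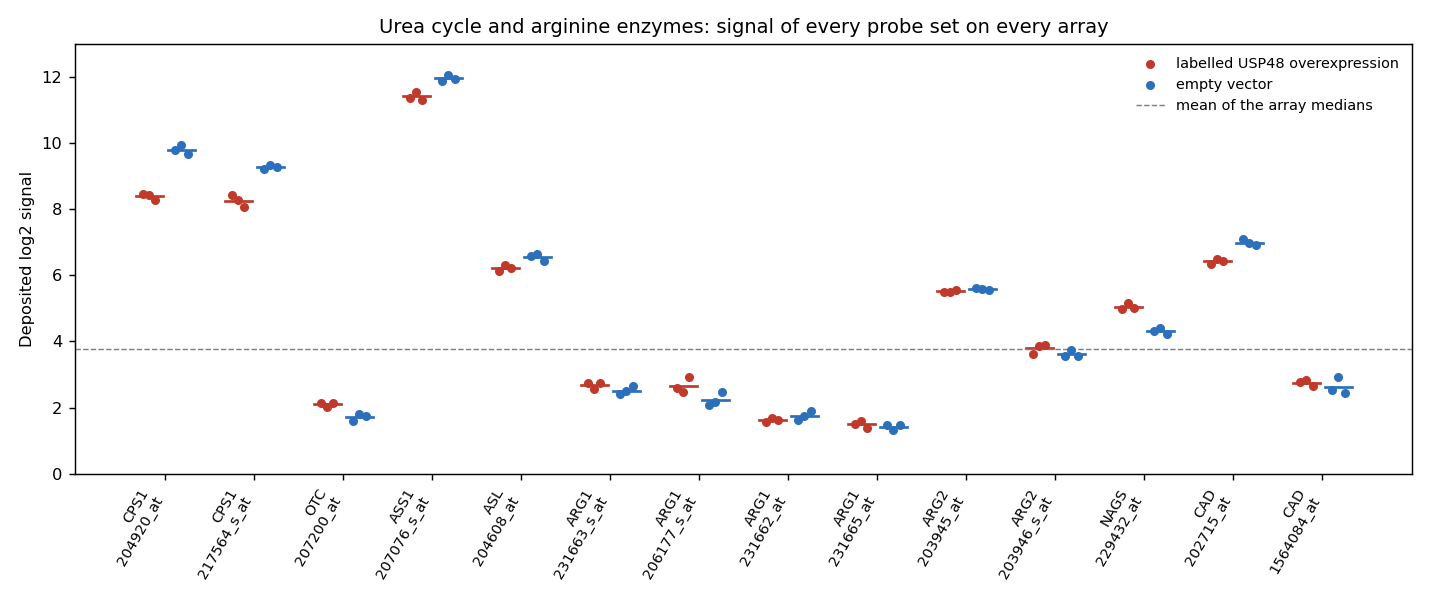
Deposited log2 signal (y axis) of the 14 probe sets of the 8 genes (x axis) on each array, red for arrays labelled USP48 overexpression and blue for empty vector, with the mean of 3 arrays as a bar and the mean of the array medians as a dashed line. The CPS1 arrays labelled USP48 overexpression lie between 8.06 and 8.47, below the empty vector arrays at 9.22 to 9.93, while OTC and ARG1 lie under the dashed line in both groups.

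CPS1 was read by a pair of probe sets, which moved together. Probe set 204920_at had 8.47, 8.42 and 8.29 in the arrays labelled USP48 overexpression, against 9.79, 9.93 and 9.68 in the empty vector arrays. All USP48-labelled arrays lay below all empty vector arrays, by more than the range within either group. The means were 8.39 ± 0.09 in USP48-labelled arrays and 9.80 ± 0.12 in empty vector arrays (SD, n = 3 each), a log2 difference of -1.41 (SE 0.10, 95% interval -1.63 to -1.19, limma adjusted p = 5.68e-06) or 2.65-fold lower. Probe set 217564_s_at had 8.43, 8.27 and 8.06 in USP48-labelled arrays and 9.22, 9.33 and 9.27 in empty vector arrays, again without overlap. Its difference was -1.02 (SE 0.11, 95% interval -1.26 to -0.78, limma adjusted p = 6.98e-05), 2.03-fold lower. Only 2.32% of all probe sets were both called and at least 2-fold lower. Without USP48-labelled replicate 3 the differences were -1.36 and -0.92 and both passed (limma adjusted p = 3e-05 and 0.000201).

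NAGS, the mitochondrial N-acetylglutamate synthase, went the other way in its 1 probe set, 229432_at. It had 4.995, 5.153 and 5.010 in USP48-labelled arrays, against 4.326, 4.393 and 4.222 in empty vector arrays, with no overlap. The log2 difference was 0.74 (SE 0.09, 95% interval 0.53 to 0.95, limma adjusted p = 0.000225), 1.67-fold higher. Under control scaling it was 0.45 and still passed (limma adjusted p = 0.00817). The synthase of the activator and the enzyme it activates thus differed in opposite directions between the same arrays, for NAGS by 1 probe set at low signal.

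OTC, the mitochondrial ornithine transcarbamylase, was dim on every array. Its probe set 207200_at had 2.13, 2.02 and 2.15 in USP48-labelled arrays and 1.60, 1.81 and 1.75 in empty vector arrays. These ranges were apart, and the difference of 0.38 (SE 0.10, limma adjusted p = 0.0145) passed the test, but no fold is given at signals below the median of every array. The call was lost under control scaling (0.09, adjusted p = 0.555) and without empty vector replicate 1 (0.32, adjusted p = 0.0655).

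The cytosolic enzymes that remake arginine were both lower. ASS1, the argininosuccinate synthase, had 11.38, 11.54 and 11.32 in USP48-labelled arrays, against 11.88, 12.05 and 11.95 in empty vector arrays for 207076_s_at. All USP48-labelled arrays were the lower ones, and the difference was -0.55 (SE 0.10, 95% interval -0.77 to -0.33, limma adjusted p = 0.00199), 1.46-fold lower. ASS1 has many processed pseudogenes, and whether this probe set also reads them is not known here, so its value is uncertain for the gene alone. ASL, the argininosuccinate lyase, had 6.12, 6.32 and 6.23 in USP48-labelled arrays and 6.60, 6.65 and 6.44 in empty vector arrays for 204608_at. The groups did not overlap, but the gap between the nearest arrays was small. The difference was -0.34 (SE 0.10, 95% interval -0.56 to -0.12, limma adjusted p = 0.0282), 1.27-fold lower. The ASL call was lost without USP48-labelled replicate 1 (adjusted p = 0.0992) or 3 (0.056) and without empty vector replicate 1 (0.0903) or 2 (0.112).

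The arginases showed no difference that held. ARG2, the mitochondrial arginase, had 5.50, 5.50 and 5.57 in USP48-labelled arrays and 5.62, 5.57 and 5.55 in empty vector arrays for 203945_at. The groups overlapped, and the 95% interval of the difference ran from -0.25 to 0.13 (limma adjusted p = 0.674). Its dimmer probe set 203946_s_at differed by 0.17 (95% interval -0.06 to 0.40, limma adjusted p = 0.285). Under control scaling 203945_at was at -0.35 and passed (adjusted p = 0.0205), and 203946_s_at turned to -0.12. ARG1, the liver arginase, was dim in all 4 probe sets, between 1.40 and 2.92 in USP48-labelled arrays and between 1.32 and 2.65 in empty vector arrays. One of them, 206177_s_at, had 2.60, 2.48 and 2.92 in USP48-labelled arrays and 2.08, 2.16 and 2.48 in empty vector arrays, and its difference of 0.42 just passed (limma adjusted p = 0.0473). The groups met at 2.48, and the call was lost without USP48-labelled replicate 1 (adjusted p = 0.0822) or 3 (0.145), without empty vector replicate 1 (0.172) or 2 (0.148), after quantile normalization (0.0502) and under control scaling (0.44). The other ARG1 probe sets were at 0.17, -0.14 and 0.08 (limma adjusted p = 0.281, 0.361 and 0.59), and under control scaling 231662_at, at -0.43, was called lower (adjusted p = 0.0121).

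CAD, which draws on the same aspartate as ASS1, was lower in its brighter probe set. Probe set 202715_at had 6.34, 6.502 and 6.44 in USP48-labelled arrays, against 7.09, 6.97 and 6.91 in empty vector arrays, with no overlap. The difference was -0.57 (SE 0.09, 95% interval -0.78 to -0.36, limma adjusted p = 0.00129), 1.48-fold lower. The dim probe set 1564084_at had 2.78, 2.83 and 2.66 in USP48-labelled arrays and 2.53, 2.93 and 2.44 in empty vector arrays. These overlapped, with a difference of 0.12 (limma adjusted p = 0.559), and the mean of the pair of probe sets did not pass (-0.22, adjusted p = 0.0838).

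**Figure D2:**
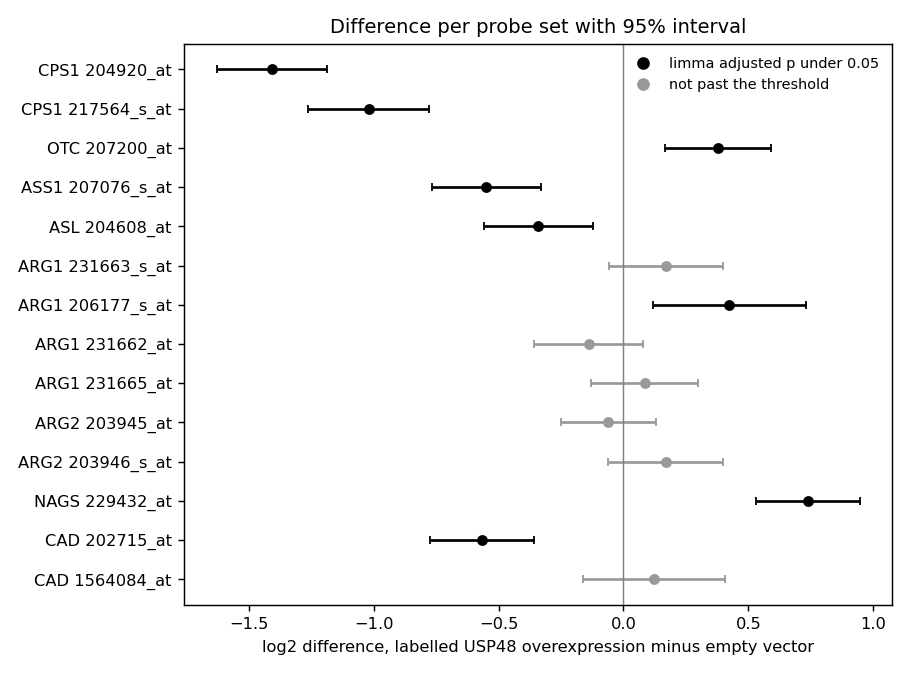
Log2 difference of each probe set, arrays labelled USP48 overexpression minus empty vector (x axis), with the 95% interval from limma, black where the adjusted p was under 0.05 and grey otherwise. The CPS1 probe sets at -1.41 and -1.02 lie farthest from 0, ASS1, ASL and CAD 202715_at lie between -0.57 and -0.34, and NAGS is at 0.74.

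By compartment, the mitochondrial members went in both directions, with CPS1 lower, NAGS and dim OTC higher and ARG2 not past the test. Of the cytosolic members, ASS1, ASL and CAD were lower in their brightest probe sets and ARG1 was dim. Probe sets of 1 gene share their source and are not replicates.

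**Figure D3:**
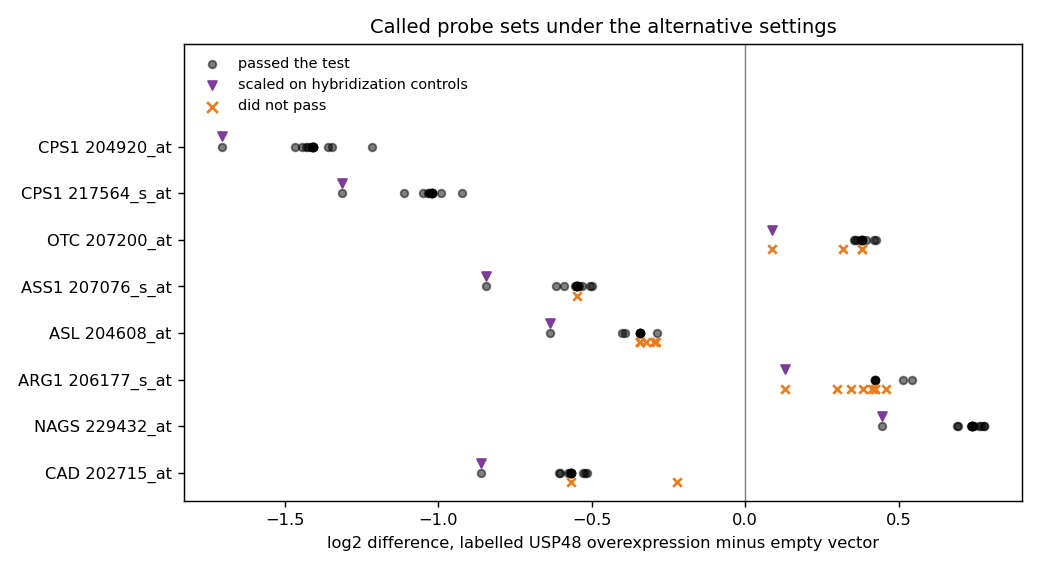
Log2 difference (x axis) of the 8 called probe sets under the deposited values and every alternative setting, as dark points where the test was passed and orange crosses where it was not, with control scaling marked by a triangle. CPS1 stayed between -1.70 and -0.92 over both probe sets and NAGS between 0.45 and 0.78, and all of their values passed, while OTC and ARG1 206177_s_at were at 0.09 and 0.13 under control scaling.

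The sequence before the transcription start is shown for the called members whose signal lay above the array medians, since these moved between the groups. RefSeq promoter sequences of GRCh38.p14 matched all 8 members with 11 start sites, and the 250 bases before each start were searched on both strands for 6 motifs chosen with the results known. The motifs were the E-box CACGTG, bound by MYC and MAX among others, the cAMP response element TGACGTCA, the CCAAT box, the GC box GGGCGG, the C/EBP core TTGCNNAA and the AP-1 motif TGANTCA. Capitals mark the matches, no match of 1 motif overlapped one of another motif in these windows, and for a gene with several starts the window with the most motifs is printed, 5′ to 3′.
CPS1 (chr2:210519468-210519717, plus strand): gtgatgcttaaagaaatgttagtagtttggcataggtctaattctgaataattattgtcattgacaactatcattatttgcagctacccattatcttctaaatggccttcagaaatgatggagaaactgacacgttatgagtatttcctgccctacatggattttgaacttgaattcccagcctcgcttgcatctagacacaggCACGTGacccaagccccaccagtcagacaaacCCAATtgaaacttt
ASS1 (chr9:130444711-130444960, plus strand): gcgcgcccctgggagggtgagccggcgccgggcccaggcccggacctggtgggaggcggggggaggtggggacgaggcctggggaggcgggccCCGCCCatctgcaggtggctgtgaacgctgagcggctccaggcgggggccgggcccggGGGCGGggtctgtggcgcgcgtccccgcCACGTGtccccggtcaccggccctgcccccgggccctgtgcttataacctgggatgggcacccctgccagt
ASL (chr7:66075569-66075818, plus strand): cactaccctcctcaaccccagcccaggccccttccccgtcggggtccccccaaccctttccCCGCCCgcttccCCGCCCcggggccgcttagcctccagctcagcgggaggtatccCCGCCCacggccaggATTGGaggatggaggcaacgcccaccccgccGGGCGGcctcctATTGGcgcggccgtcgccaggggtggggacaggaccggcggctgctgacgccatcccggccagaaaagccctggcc
CAD (chr2:27217119-27217368, plus strand): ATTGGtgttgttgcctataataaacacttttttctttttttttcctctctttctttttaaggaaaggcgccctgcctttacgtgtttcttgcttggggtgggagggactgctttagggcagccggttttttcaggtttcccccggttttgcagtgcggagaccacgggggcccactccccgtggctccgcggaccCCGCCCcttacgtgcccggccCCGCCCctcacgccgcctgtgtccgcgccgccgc
NAGS (chr17:44004372-44004621, plus strand): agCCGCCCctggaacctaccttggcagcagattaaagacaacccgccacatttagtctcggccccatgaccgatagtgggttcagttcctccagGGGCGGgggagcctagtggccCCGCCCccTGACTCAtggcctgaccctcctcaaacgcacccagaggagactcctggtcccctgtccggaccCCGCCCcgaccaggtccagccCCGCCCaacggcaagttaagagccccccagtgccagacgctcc

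For CPS1 and ASS1 the printed window was picked for holding the most motifs, so shares over all windows are not a like measure. The E-box was found in the printed windows of CPS1 and ASS1, and in 6.34% of 35116 windows of the same length. The CCAAT box was in those of CPS1, ASL and CAD (32.0% of all windows), and the GC box in those of ASS1, ASL, CAD and NAGS (42.6%). The AP-1 motif was in the NAGS window (6.57%), which was the 1 printed window of a member that rose. The other 2 CPS1 windows held 0 of the 6 motifs, the other ASS1 window held GC boxes, and those of OTC and ARG1 held none. ARG2, which did not pass the test, had 2 cAMP response elements (1.65% of all windows), with CCAAT and GC boxes. The C/EBP core (9.05% of all windows) was in 0 of the 11. Bases after the start and farther upstream were not searched, so a motif missing from a window may lie elsewhere at the gene. Which start these cells use was not measured, and a match is not a binding site.

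Genes that feed the cycle and use its products were taken from 7 lists with 62 genes besides the members, of which 55 had a probe set naming that gene alone and were represented by the brightest. Of these 55 genes 7 rose and 11 fell, where 14.0% of all 19775 genes rose and 13.2% fell. The median difference of all genes was 0.05.

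Carriers that serve the cycle fell in 2 of 7 cases and rose in 0 (median 0.05). SLC25A15, which brings ornithine into the mitochondrion, had 7.28, 7.23 and 7.51 in USP48-labelled arrays, against 7.79, 7.73 and 7.77 in empty vector arrays (difference -0.42, SE 0.10, limma adjusted p = 0.0102). SLC25A13, citrin, which exports the aspartate used by ASS1, had 6.77, 6.53 and 6.78 in USP48-labelled arrays and 7.44, 7.31 and 7.41 in empty vector arrays (difference -0.70, SE 0.10, limma adjusted p = 0.000492). For both genes the groups were apart. Dimmer probe sets did not pass, at -0.0040 for SLC25A15 and at -0.25 and -0.16 for SLC25A13, and the mean of the SLC25A15 probe sets did not pass either (-0.21, adjusted p = 0.0645).

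Plasma membrane transporters were mixed, with 2 of 10 higher and 2 of 10 lower (median -0.05). SLC7A6, which carries cationic and neutral amino acids, had 5.59, 5.79 and 5.92 in USP48-labelled arrays, against 7.03, 7.04 and 6.96 in empty vector arrays. The groups were far apart (difference -1.24, SE 0.10, limma adjusted p = 1.44e-05), and its other probe sets were at -0.52 and 0.09. SLC7A2, an arginine and lysine transporter, fell by 0.60 (limma adjusted p = 0.00122) in its brightest probe set, while the dimmer 230658_at rose by 0.33 (limma adjusted p = 0.0338) and the average of its probe sets did not pass (-0.016, adjusted p = 0.897). Even the brightest SLC7A2 probe set was low, at 4.00 in USP48-labelled arrays and 4.61 in empty vector arrays. SLC3A2, the heavy chain that pairs with SLC7A6, had 8.95, 9.17 and 8.89 in USP48-labelled arrays and 8.17, 8.41 and 8.26 in empty vector arrays (difference 0.72, limma adjusted p = 0.000577). SLC1A5, a glutamine transporter, rose by 0.50 (limma adjusted p = 0.0078; 0.20, adjusted p = 0.176, under control scaling). The principal arginine transporter SLC7A1 was at -0.14 and did not pass (limma adjusted p = 0.501), while its dimmer 212292_at rose by 0.49 (limma adjusted p = 0.00246).

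Of the 16 genes measured on the lists for arginine use and for ornithine, proline and polyamine entry 3 were called, where 27.1% of all genes were. Not every gene on these lists acts on arginine or ornithine itself, DDAH1, DDAH2, GAMT and AZIN2 among them. Of 9 genes of arginine use other than arginase, 1 fell and 0 rose (median 0.03). It was AGMAT, whose symbol stands for agmatinase, at -0.63 (limma adjusted p = 0.00604), with other probe sets at -0.15 and 0.07 and a mean that did not pass (adjusted p = 0.0533). Over all 32 probe sets of this list 2 were higher and 3 lower, where 10.6% and 13.8% of all probe sets were. Of 7 measured genes of ornithine, proline and polyamine entry, 2 fell and 0 rose (median -0.21). ODC1, which decarboxylates ornithine to putrescine, had 9.99, 10.11 and 10.49 in USP48-labelled arrays, against 11.16, 11.11 and 11.12 in empty vector arrays. The groups did not overlap (difference -0.93, SE 0.13, limma adjusted p = 0.000334). ALDH18A1, which starts ornithine and proline synthesis from glutamate, fell by 0.27 (limma adjusted p = 0.0459), a call lost without any 1 array other than USP48-labelled replicate 3 (adjusted p = 0.0932 to 0.132) and after quantile normalization (adjusted p = 0.06). OAT, which converts ornithine to glutamate semialdehyde, was at -0.22 and did not pass (limma adjusted p = 0.27).

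Among 6 measured genes of glutamine, glutamate, aspartate and ammonia, 1 rose and 1 fell (median 0.05). ASNS, which makes asparagine from aspartate, had 9.38, 9.24 and 9.60 in USP48-labelled arrays and 8.73, 8.995 and 8.96 in empty vector arrays (difference 0.51, limma adjusted p = 0.00844; 0.22, adjusted p = 0.155, under control scaling, and 0.29, adjusted p = 0.0691, averaged with a dim probe set). GLUL, glutamine synthetase, which also takes up ammonia, fell by 0.31 (limma adjusted p = 0.029), a call that did not survive leaving out any 1 array other than USP48-labelled replicate 2 (adjusted p = 0.0525 to 0.109) or averaging its probe sets (-0.11, adjusted p = 0.417). Of 6 measured genes of pyrimidine synthesis beyond CAD, 2 fell and 0 rose (median 0.07). CMPK1, which phosphorylates UMP and CMP, was at -0.64 (limma adjusted p = 0.000896) with a similarly bright probe set at 0.05 and an average that did not pass (-0.16, adjusted p = 0.14), and TYMS, thymidylate synthase, was at -0.47 (limma adjusted p = 0.00216) with another at -0.77. DHODH and UMPS, which follow CAD in the pathway, were at 0.07 and 0.20 and did not pass (limma adjusted p = 0.728 and 0.155), though a dim UMPS probe set, 239800_at, fell by 0.54 (limma adjusted p = 0.00507).

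**Figure D4:**
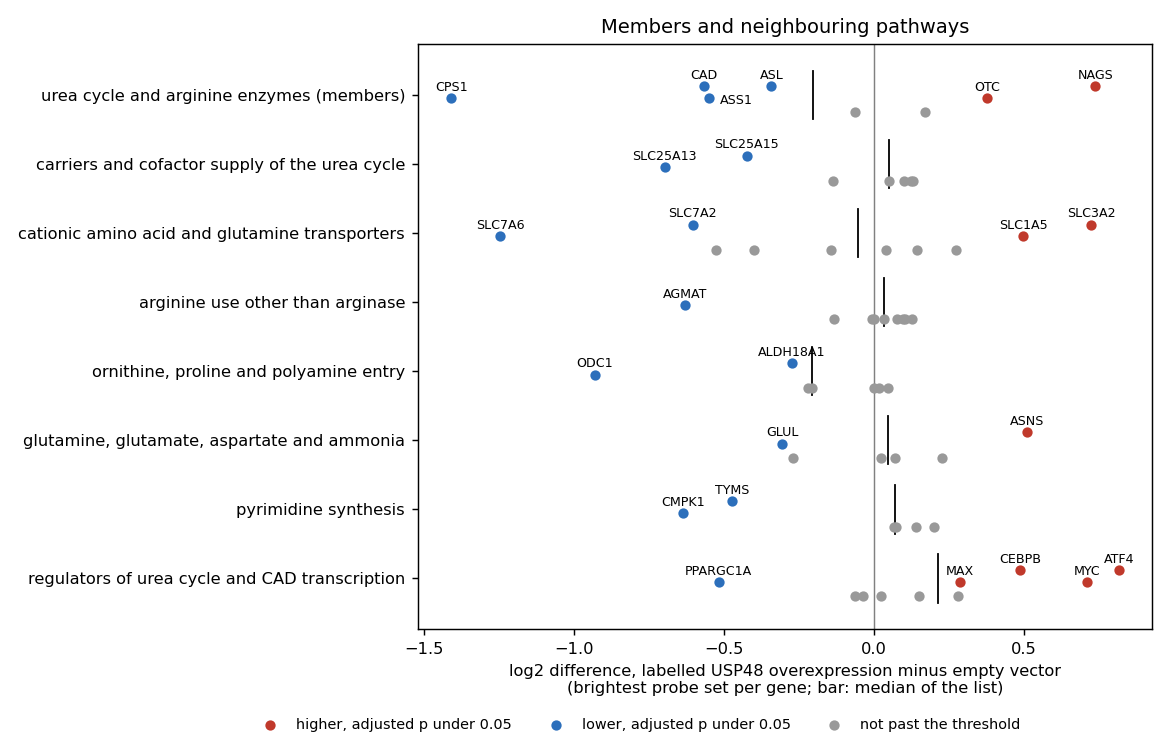
Log2 difference, arrays labelled USP48 overexpression minus empty vector (x axis), of the brightest probe set of each gene in the members and 7 neighbouring lists (rows), red for called higher, blue for called lower and grey for not past the threshold, with the list median as a vertical bar. CPS1 at -1.41 and SLC7A6 at -1.24 are the lowest points, and ATF4 at 0.82 and NAGS at 0.74 the highest.

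Of 10 measured transcription factors and receptors known to act on genes of the cycle or on CAD, 4 rose and 1 fell (median 0.22). MYC, known to drive CAD and ODC1, had 9.20, 9.33 and 8.89 in USP48-labelled arrays, against 8.42, 8.37 and 8.50 in empty vector arrays. The groups did not overlap (difference 0.71, SE 0.12, limma adjusted p = 0.00123). CAD and ODC1 were lower in the same arrays by their brightest probe sets, and the part of MYC in this was not tested. ATF4, a stress factor that drives ASNS, had 11.30, 11.35 and 11.13 in USP48-labelled arrays and 10.19, 10.78 and 10.34 in empty vector arrays (difference 0.82, SE 0.14, limma adjusted p = 0.0017). CEBPB, a liver-enriched factor induced in inflammation, rose by 0.49 (limma adjusted p = 0.00198; 0.19, adjusted p = 0.199, under control scaling). PPARGC1A, a coactivator of the fasting response in liver, fell by 0.52 (limma adjusted p = 0.00317), and its probe-set average did not pass (-0.16, adjusted p = 0.165). Its signal was low, at 4.22 in USP48-labelled arrays and 4.74 in empty vector arrays. CEBPA and NR3C1, the liver factor and glucocorticoid receptor that act on CPS1, were at -0.06 and 0.03 and did not pass (limma adjusted p = 0.705 and 0.88), while the dim NR3C1 probe set 232431_at fell by 1.26 (limma adjusted p = 1.56e-05). MAX, the partner of MYC, was at 0.29 (limma adjusted p = 0.0396) in its brightest probe set and at -0.0074 under control scaling, and its call was also lost without any 1 array other than USP48-labelled replicate 3 (adjusted p = 0.071 to 0.116). The other MAX probe sets, all dimmer, rose by 0.52 to 0.72 (limma adjusted p = 0.000383 to 0.00687).

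The genes nearest to each member in pattern were taken as those with the smallest root mean square difference of centred log2 values over the 6 arrays, among 12630 genes above the median of all probe sets. For CPS1 they were TCFL5, MAOB and IMPA2, at distances of 0.05, 0.08 and 0.09 and with differences of -1.40, -1.47 and -1.38. For NAGS they were C1S, POLR3C and MTRF1, with distances of 0.02 to 0.04 and differences of 0.71 to 0.75. For ASS1 they were PCBP2, SULT1A1 and WDR90, for ASL CAMK1, PARVB and HADHA, and for CAD SCFD2, AHCYL1 and FARP2, at distances of 0.01 to 0.03. Dim OTC lay nearest to LENG9, CNKSR1 and HCN4. With 6 arrays in 2 groups genes with group differences of like size lie near each other by construction, and a short distance says nothing of shared control.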

How the data were processed

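The data are 6 Affymetrix arrays of the line SNU-449, 3 per group, grouped by title. The authors deposited log2 values that the submitters' processing notes assign to RMA. Settings and detection calls were not given in the sources used, and 0 columns were left unused. The deposited values ran from 0.190 to 13.2, with array medians of 3.74 to 3.79. Values below 1 are unusual for RMA, so small signals and their differences should be read with care. The number of arrays limits the precision.

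The 54675 probe sets comprised 62 controls, 41091 with a single symbol in the platform annotation, 1801 with several and 11721 without one. Of those with 1 symbol 41037 matched RefSeq GRCh38.p14 by gene ID, and 0 symbols changed. No probe set paired a member with another gene. Every non-control probe set was tested with limma 3.58.1 (R 4.3.3), by a two-sided moderated test after lmFit and eBayes, with Benjamini-Hochberg adjustment over 54613 probe sets and a threshold of 0.05, with no filter and no further normalization, and the test was checked on simulated data. The alternatives were quantile normalization, median centring, control scaling, an intensity trend with a robust prior, a filter on dim probe sets, 1 value per gene, a replicate block, each array left out, and stricter limits. Technical measures were compared with an exact permutation test. A list gene was read from its brightest probe set by mean over arrays. Named were all member probe sets, up to 4 called genes per list with the largest difference, and genes of nearest pattern, and uncalled genes named beside them were chosen after their values were seen. Members, lists and motifs were chosen with earlier results of these data known. Same-numbered arrays deviated together with correlations of -0.02, 0.11 and -0.02 over probe sets, so the numbers were not taken as pairs. Python 3.11.15 with matplotlib 3.10.9 drew the figures.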

Additional observations from a re-analysis of the deposited data

How the results depend on the processing

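The calls of both CPS1 probe sets and of NAGS held under every setting run, and those of ASS1 and CAD 202715_at under all but a 1.5-fold limit (and, for CAD, the mean of its probe sets). Control scaling, under which 7 member probe sets were lower and 1 higher, gave 1826 probe sets higher and 21292 lower over the array (7.90% of calls higher, against 43.4% as deposited), and 3 pathway genes higher and 21 lower. It turned uncalled values to the other sign, at -0.12 for ARG1 231663_s_at, -0.21 for ARG1 231665_at, -0.12 for ARG2 203946_s_at, -0.17 for CAD 1564084_at and -0.052 for USP48 229812_at, and the called MAX 209332_s_at to -0.0074. ARG2 203945_at was at 0.0055 after quantile normalization, and ARG2 at 0.055 as the mean of its probe sets. One member probe set was higher (1) without the dimmest 33.3% of probe sets, which leaves OTC and ARG1 out. At an adjusted p under 0.01 there was also 1, with 3301 higher over all probe sets, and with a 1.5-fold limit 1 higher and 2 lower, 2103 higher and 3796 lower over all probe sets, and 3 higher and 6 lower pathway genes. With the brightest probe set per gene, which tests fewer features, 3103 genes were higher and 2794 lower. With the mean of all probe sets 3 members were lower, and 2720 genes were higher and 2691 lower. Leaving out 1 array at a time gave 1 to 3 member probe sets higher and 4 to 5 lower, 6 to 7 pathway genes higher and 9 to 12 lower, and 4170 to 5403 probe sets higher and 5890 to 7191 lower over the array, with 1 higher member without empty vector replicate 1. With the replicate number as a block 3 member probe sets were higher and 5 lower (5421 and 7281 over all probe sets), and the calls of ALDH18A1, MAX and SOX9 were lost. The cause of the other changes was not tested. Dim signal limits OTC and ARG1.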
